A study of Mus musculus with 32 samples.

Results

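The 8 genes described here encode factors that hold and feed blood-forming cells in the bone marrow, and receptors that read them: *Cxcl12*, *Kitl*, *Angpt1*, *Vcam1*, *Lepr*, *Il7*, *Cxcr4* and *Ackr3*. They were picked by symbol from the 31053 genes listed in the single-cell count matrices. The study profiled BMSC-OBs, bone marrow stromal cells grown to confluence and then kept in osteogenic medium until the culture mineralised, from Diversity Outbred mice, an outbred stock in which each animal carries its own mixture of founder genomes. Cells of 77 mice were combined, 4 or 5 mice to a pool, into 16 pools, and every pool was sequenced in 2 runs. All pools received the same osteogenic medium, with ascorbic acid, β-glycerophosphate and dexamethasone, and no treatment differed between pools. The pool is therefore the replicate, and the comparisons lie between cell classes within pools. The study used both sexes, and ages are not given in the sources used here. The study assigned cells to single mice by genotype, whereas the values given here leave cells unassigned within their pool.

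In marrow, the chemokine CXCL12 (*Cxcl12*) and stem cell factor (*Kitl*) keep blood-forming stem cells in place and alive, and the best known sources of both are perivascular stromal cells that carry the leptin receptor (*Lepr*). Angiopoietin 1 (*Angpt1*) signals to the receptor TIE2 (*Tek*) on endothelium and stem cells, VCAM1 (*Vcam1*) is an adhesion molecule bound by the integrin of ITGA4 and ITGB1, and interleukin 7 (*Il7*) feeds lymphoid precursors through *Il7r*. CXCL12 is bound by the signalling receptor CXCR4 (*Cxcr4*), which most leukocytes use to home to marrow, and by ACKR3 (*Ackr3*), an atypical receptor that takes up and removes the chemokine.

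In the GRCm38 build the genes lie as follows, all protein coding. *Cxcl12* (ENSMUSG00000061353) is at chr6:117168535-117181367 on the plus strand, *Kitl* (ENSMUSG00000019966) at chr10:100015630-100100416 on the plus strand, and *Lepr* (ENSMUSG00000057722) at chr4:101717404-101815352 on the plus strand. *Cxcr4* (ENSMUSG00000045382) is at chr1:128588199-128592293 on the minus strand and *Ackr3* (ENSMUSG00000044337) at chr1:90203980-90216751 on the plus strand. *Angpt1* (ENSMUSG00000022309) is at chr15:42424723-42676977, *Vcam1* (ENSMUSG00000027962) at chr3:116109949-116129688 and *Il7* (ENSMUSG00000040329) at chr3:7569994-7613760, all on the minus strand, and an antisense gene overlaps each of these 3 on the other strand (*Gm17473*, *Gm43109* and *Gm16685* in the same order).

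The ligand *Cxcl12* and its receptors *Ackr3* and *Cxcr4* were each highest in a different class of cells (below), so the 150 bases before the transcription start of these 3 genes are shown, from RefSeq on GRCm38.p6, 5′ to 3′ on the strand of the gene. Capitals mark matches to the GC box (GGGCGG) and the TATA box (TATAAA) on either strand, and matches may overlap.
Cxcl12, chr6:117168385-117168534, plus strand: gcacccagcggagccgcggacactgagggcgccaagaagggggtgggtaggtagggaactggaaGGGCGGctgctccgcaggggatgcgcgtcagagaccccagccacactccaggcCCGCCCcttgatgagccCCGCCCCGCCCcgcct
Ackr3, chr1:90203830-90203979, plus strand: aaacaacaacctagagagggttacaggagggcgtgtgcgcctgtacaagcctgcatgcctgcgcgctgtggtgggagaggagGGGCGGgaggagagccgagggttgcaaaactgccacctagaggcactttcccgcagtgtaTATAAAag
Cxcr4, chr1:128592300-128592449, minus strand: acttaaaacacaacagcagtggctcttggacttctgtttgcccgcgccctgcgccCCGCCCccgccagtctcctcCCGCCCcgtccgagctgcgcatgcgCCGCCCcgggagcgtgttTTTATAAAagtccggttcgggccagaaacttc
The *Cxcl12* window held 4 GC boxes and no TATA box at 72.7% G and C. The *Ackr3* window held 1 GC box and 1 TATA box, the latter beginning 8 bases before the start, at 58% G and C. The *Cxcr4* window held 3 GC boxes, and a pair of overlapping TATA matches on opposite strands beginning 32 and 30 bases before the start. None of the 3 held the other motifs searched on both strands, which were CCAAT (the CCAAT box), CCCNNGGG (the core of the site of EBF factors) and ACGTG (the core of the hypoxia response element). Among 32851 promoters of the same length, 28.6% held GGGCGG, 7.57% TATAAA, 24.5% CCAAT, 7.72% CCCNNGGG and 11.2% ACGTG. A match is a run of letters and not a measured site. Promoters were matched for 5 of the 8 genes, and those of *Kitl* and *Lepr* are not printed because the window overlapped an exon.

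The first run gave 107853 barcodes, and 84758 cells remained after limits on genes and on mitochondrial and ribosomal UMIs and after removal of 4151 called doublets. A UMI is 1 captured RNA molecule. Total UMIs per pool ranged from 53990642 to 100777353 and the median per cell from 2681 to 14833, and any pair of pools shared 3 to 28 barcodes, at most 0.433% of the smaller pool. Cells of at least 2000 UMIs were gated by summed levels of marker genes into 47913 mesenchymal cells (collagens) and 14324 leukocytes (*Ptprc* and others). Within these lay the 6 classes used most: 5466 adipogenic-gated cells (*Adipoq*, *Lpl*, *Pparg*), 3865 contractile-gated cells (*Acta2*, *Tagln*), 17039 osteoblast-gated cells (*Bglap*, *Ibsp*), 4344 osteocyte-like-gated cells (*Dmp1*, *Phex*), 4354 macrophage-gated cells (*C1qa*, *Adgre1*) and 1042 granulocyte-gated cells (*S100a8*, *Ngp*). Set aside were 572 cells with both marker sets, 5747 cells between the gates and 16112 cells under 2000 UMIs. The limit on the summed collagen level of leukocytes was 160, above the median of 47.39 in adipogenic-gated cells. Mixtures of a leukocyte and an adipogenic-gated cell that were not called as doublets could therefore be counted as leukocytes. Their part in leukocyte levels was not tested. None of the 8 genes was a marker. These classes are ranges of a score and not types. Of the adipogenic-gated cells 581 lay within 1.2-fold above the limit and 636 other cells within 1.2-fold below it. The same counts were 446 and 1212 for contractile-gated, 1054 and 1561 for osteoblast-gated, 1166 and 1544 for osteocyte-like-gated, 1059 and 927 for macrophage-gated, and 1 and 10 for granulocyte-gated cells. A class was used in a pool where it had at least 20 cells, which held in all 16 pools except for granulocyte-gated cells, with 10 pools. Median depth differed between classes, at 9858 UMIs per cell in adipogenic-gated, 20109 in contractile-gated, 19774 in osteoblast-gated, 16254 in osteocyte-like-gated, 5271 in macrophage-gated and 4999 in granulocyte-gated cells.

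Levels are given as UMIs of the gene per 10,000 UMIs of the class in a pool, as mean ± SD over pools. Neighbours in the order of levels were compared by a two-sided exact paired permutation test over pools on log2 values, with adjustment over all 40 such tests, for which the smallest adjusted p was 0.000111 (a raw p of 3.05e-05, the smallest that 16 pools can give). Transcripts were counted near one end, so isoforms are merged and levels of different genes are set side by side without scaling for length.

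**Figure D1:**
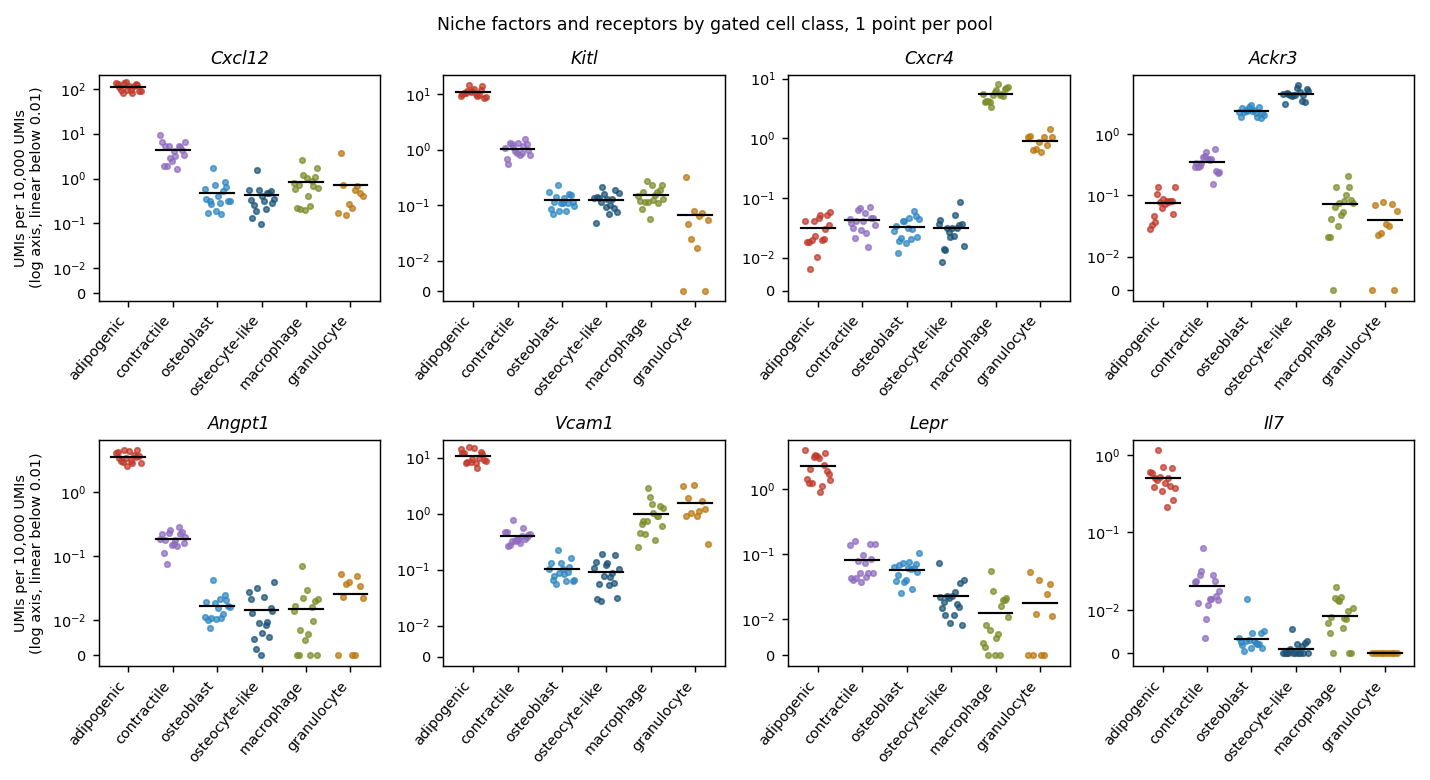
UMIs per 10,000 UMIs (log axis, linear below 0.01) of each of the 8 genes in the 6 largest gated classes, with 1 point per pool and the mean over pools as a bar. *Cxcl12*, *Kitl*, *Angpt1*, *Vcam1*, *Lepr* and *Il7* sat highest in adipogenic-gated cells, *Ackr3* in osteocyte-like-gated cells at 4.61 and *Cxcr4* in macrophage-gated cells at 5.54.

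The chemokine gene *Cxcl12* was highest in adipogenic-gated cells. Its level there was 79.6 in the lowest pool, 110.9 in the median pool and 144.5 in the highest, with a mean of 109.5 ± 20.6 (SD, n = 16). Among the 6 largest classes, contractile-gated cells came next at 4.31 ± 2.09 (SD, n = 16), from 1.64 to 9.27. No pool of the one class overlapped any pool of the other, and the adipogenic-gated level was higher in 16 of 16 pools, with means 25.4-fold apart (exact permutation test, adjusted p = 0.000111). Contractile-gated cells were in turn above macrophage-gated cells, at 0.833 ± 0.639, in 16 of 16 pools (exact permutation test, adjusted p = 0.000111). Below these the order was granulocyte-gated at 0.73 ± 1.03 (n = 10), osteoblast-gated at 0.487 ± 0.377 and osteocyte-like-gated cells at 0.422 ± 0.337. Granulocyte-gated and osteoblast-gated cells did not differ beyond their spread (exact permutation test, adjusted p = 0.563). The granulocyte-gated mean rested on pool 6. Without it the mean was 0.409 ± 0.214 (n = 9), against 0.40 in osteoblast-gated cells of the same pools (exact permutation test, adjusted p = 0.945 over 6 tests), and granulocyte-gated cells were lower than macrophage-gated cells in 9 of 9 pools (exact permutation test, adjusted p = 0.00586).

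Counted as cells with at least 1 UMI after each cell was thinned to 2000 UMIs, *Cxcl12* was found in 96.1% ± 2.62 of adipogenic-gated cells (98.7% unthinned) and in 38.8% ± 10.1 of contractile-gated cells. Granulocytes are not known as a source of this chemokine, and their share was 11.3% ± 9.31 (SD, n = 10, 24.0% unthinned). Macrophage-gated cells stood at 14.2% ± 9.29, osteoblast-gated at 10.6% ± 7.84 and osteocyte-like-gated cells at 8.66% ± 6.00. Granulocyte-gated and osteoblast-gated shares did not differ beyond their spread, at 0.651 ± 2.63 percentage points (SD, higher in granulocyte-gated cells in 5 of 10 pools, exact permutation test, adjusted p = 0.573 over 40 tests). Without pool 6 the granulocyte-gated share was 8.65% ± 4.16 (n = 9), against 12.5% in macrophage-gated, 8.60% in osteoblast-gated and 7.24% in osteocyte-like-gated cells of the same pools (exact permutation tests, adjusted p = 0.0703, 0.93 and 0.158 over 3 tests). No expression is read from the osteoblast-gated and osteocyte-like-gated shares, and no absence either. Contractile-gated, osteoblast-gated and osteocyte-like-gated cells were held to an adipogenic score below 10, and the leukocyte classes were not. The leukocyte shares are therefore not a like background for them. The mean contractile-gated share was above the macrophage-gated, granulocyte-gated, osteoblast-gated and osteocyte-like-gated shares. Its pools ran from 23.9% to 56.2%, which overlapped macrophage-gated pools of up to 41.9%.

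In 4 of the other 5 classes the low *Cxcl12* level moved with how much of the pool was adipogenic-gated. Across the 16 pools the *Cxcl12* level of macrophage-gated cells and the adipogenic-gated share of all UMIs gave Pearson r = 0.781 (permutation test, adjusted p = 0.00096 over 8 relations) and Spearman rho = 0.829 (permutation test, adjusted p = 0.00068), and r = 0.667 without the 2 pools farthest from the median *Cxcl12* level of that class. For osteoblast-gated cells r was 0.782 (permutation test, adjusted p = 0.00096), rho 0.756 (permutation test, adjusted p = 0.00344), and r = 0.854 without the 2 pools farthest from their own median. For osteocyte-like-gated cells r was 0.854 (permutation test, adjusted p = 8.00e-05, from a raw p of 1.00e-05, the smallest that 100000 permutations can give), rho 0.879 (permutation test, adjusted p = 0.00024), and r = 0.81 without 2 such pools. Granulocyte-gated cells had r = 0.827 over 10 pools (permutation test, adjusted p = 0.00154), rho = 0.855 (permutation test, adjusted p = 0.0059) and r = 0.747 without 2 such pools. In contractile-gated cells the relation did not pass the threshold (r = 0.484, rho = 0.485, permutation tests, adjusted p = 0.087 and 0.0793), and r was 0.337 without 2 such pools. The 8 relations were chosen after the values were seen. Pool 6 had the largest adipogenic-gated share, 12.1% of UMIs, and also the highest *Cxcl12* in macrophage-gated cells at 2.63, in granulocyte-gated cells at 3.62 and in osteoblast-gated cells at 1.68. The part of free RNA, or of uncalled mixtures with adipogenic-gated cells, in these low levels was not tested.

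*Kitl*, which encodes the ligand of the receptor KIT, had the same leading class. Adipogenic-gated cells ranged from 8.61 to 14.6 around a median of 10.4, with a mean of 10.8 ± 1.75 (SD, n = 16). Contractile-gated cells were at 1.03 ± 0.261, with pools from 0.557 to 1.53, and did not overlap the adipogenic-gated pools (means 10.5-fold apart, 16 of 16 pools, exact permutation test, adjusted p = 0.000111). Contractile-gated cells stood above macrophage-gated cells, at 0.151 ± 0.0585, in 16 of 16 pools (exact permutation test, adjusted p = 0.000111). Macrophage-gated, osteocyte-like-gated (0.124 ± 0.0446) and osteoblast-gated cells (0.122 ± 0.0411) did not differ from each other in order beyond their spread (exact permutation tests, adjusted p = 0.149 and 0.918). Granulocyte-gated cells, at 0.0675 (n = 10), were below osteoblast-gated cells in 9 of 10 pools (exact permutation test, adjusted p = 0.0163). Without pool 6 they were at 0.0395 ± 0.0301 (n = 9). They were then higher than macrophage-gated, osteoblast-gated or osteocyte-like-gated cells in 0 of 9 pools each (exact permutation tests, adjusted p = 0.00586 over 6 tests). Of adipogenic-gated cells thinned to 2000 UMIs 80.2% ± 4.79 had a *Kitl* UMI (97.1% unthinned), against 17.3% ± 3.23 of contractile-gated and 1.06% ± 0.839 of granulocyte-gated cells (2.51% unthinned). Contractile-gated pools of *Kitl* were thus above those of granulocyte-gated cells by share as well as by level.

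*Angpt1*, the ligand of TIE2, was also highest in adipogenic-gated cells, with 3.59 ± 0.639 (SD, n = 16), from 2.61 through a median of 3.54 to 4.56. Contractile-gated cells were at 0.186 ± 0.0544 with a highest pool of 0.286, so the groups did not overlap (19.3-fold between means, 16 of 16 pools, exact permutation test, adjusted p = 0.000111). Granulocyte-gated, osteoblast-gated, macrophage-gated and osteocyte-like-gated cells lay between 0.0144 and 0.0257 in the mean, and none of these neighbours differed beyond its spread (exact permutation tests, adjusted p = 0.237, 0.396 and 0.949). An *Angpt1* UMI was present in 47.7% ± 5.82 of thinned adipogenic-gated cells (86.8% unthinned) and 0.451% ± 0.334 of granulocyte-gated cells (1.36% unthinned).

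*Vcam1*, the adhesion molecule, was next highest outside the mesenchyme. In adipogenic-gated cells it ranged from 6.46 through a median of 9.59 to 15.2, with a mean of 10.6 ± 2.73 (SD, n = 16). Among the 6 largest classes, granulocyte-gated cells followed at 1.53 ± 0.951 (n = 10), from 0.285 to 3.20, and macrophage-gated cells at 1.00 ± 0.677, from 0.258 to 2.86. These leukocyte classes overlapped each other (exact permutation test, adjusted p = 0.535), and both overlapped the contractile-gated pools, which had a mean of 0.40 ± 0.124. Adipogenic-gated cells were above granulocyte-gated cells in 10 of 10 pools without overlap (exact permutation test, adjusted p = 0.00391, and 0.00195 is the smallest raw p that 10 pools can give). Macrophage-gated cells were above contractile-gated cells in 12 of 16 pools (exact permutation test, adjusted p = 0.00358). By share, 71.7% ± 8.48 of thinned adipogenic-gated cells had a *Vcam1* UMI (93.6% unthinned), 14.4% ± 8.93 of granulocyte-gated (26.5% unthinned) and 12.0% ± 5.87 of macrophage-gated cells (19.7% unthinned). The 2 leukocyte shares did not differ beyond their spread (exact permutation test, adjusted p = 0.978 over 40 tests). T cell-gated cells, taken as the reference here, stood at 3.29% ± 1.54 (n = 3 pools, 8.80% unthinned, median 4694 UMIs). They are not a low reference for every gene, since their *Cxcl12* share was 19.0% ± 14.65 (SD, n = 3 pools).

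The ratio of *Vcam1* to *Cxcl12* UMIs was higher in these leukocyte classes than in adipogenic-gated cells. Per 100 *Cxcl12* UMIs, adipogenic-gated cells held 9.83 *Vcam1* UMIs over all pools, with pools from 5.83 to 13.1. Macrophage-gated cells held 126.3, from 28.4 to 971.7, and granulocyte-gated cells 149.2, from 25 to 1767, so no pool of these leukocyte classes was within the adipogenic-gated range. Single granulocyte-gated pools rest on few counts. The value of 1767 came from 53 *Vcam1* and 3 *Cxcl12* UMIs in the 21 cells of pool 5, and pool 9 had 7 *Cxcl12* UMIs. Osteoblast-gated cells held 22.1, from 11.7 to 69.9, and contractile-gated cells 9.09, from 4.98 to 24.2, so the osteoblast-gated range overlapped those of both leukocyte classes. For *Kitl* the ratio was 9.72 in adipogenic-gated, 17.6 in macrophage-gated and 9.88 in granulocyte-gated cells, and for *Angpt1* 3.29, 2.16 and 3.53. For these a leukocyte pool range spanned the adipogenic-gated value, from 9.06 to 63.3 in macrophage-gated and 0 to 28.6 in granulocyte-gated cells for *Kitl*. The median pool for *Kitl* was 20.8 in macrophage-gated and 9.77 in granulocyte-gated cells. In adipogenic-gated cells it was 10.2, with pools from 7.08 to 14.1, so the macrophage-gated median lay above every adipogenic-gated pool. Contractile-gated cells had 22.2 *Kitl* UMIs per 100 of *Cxcl12*, from 10.4 to 65.4.

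*Lepr*, the receptor of the adipocyte hormone leptin, was detected in the same cells but varied more between pools than *Cxcl12*, *Kitl*, *Angpt1* or *Vcam1*. Adipogenic-gated cells ranged from 0.890 in pool 10 to 3.94 in pool 1 around a median of 1.93, with a mean of 2.21 ± 1.00 (SD, n = 16) and a highest pool 4.43-fold above the lowest. The same ratio of highest to lowest pool was 1.70 for *Kitl*, 1.75 for *Angpt1*, 1.81 for *Cxcl12*, 2.35 for *Vcam1* and 5.37 for *Il7*. The SD that counting error alone would give was 0.0812 for *Lepr* and 0.0378 for *Il7*. Contractile-gated cells had 0.0794 ± 0.0427 *Lepr*, below adipogenic-gated cells in 16 of 16 pools and without overlap (27.8-fold between means, exact permutation test, adjusted p = 0.000111). Osteoblast-gated cells had 0.0564 ± 0.0198, above osteocyte-like-gated cells at 0.0229 ± 0.0157 in 15 of 16 pools (exact permutation test, adjusted p = 0.000203). A *Lepr* UMI was found in 31.2% ± 10.7 of thinned adipogenic-gated cells (63.5% unthinned), 1.74% ± 1.00 of contractile-gated, 1.14% ± 0.478 of osteoblast-gated and 0.247% ± 0.237 of granulocyte-gated cells (0.827% unthinned). *Lep* itself, the ligand, had 23 UMIs in all mesenchymal cells together and 0 in leukocytes.

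The level of *Il7*, the lymphoid growth factor, in adipogenic-gated cells was 0.510 ± 0.220 (SD, n = 16), from 0.216 through a median of 0.490 to 1.16, the highest being pool 6. Contractile-gated cells had 0.0207 ± 0.0139, with a highest pool of 0.0635 that lay below every adipogenic-gated pool (24.6-fold between means, 16 of 16 pools, exact permutation test, adjusted p = 0.000111). None of 1042 granulocyte-gated cells had an *Il7* UMI, which allows a share of up to 0.288%, and none of 292 T cell-gated cells did, which allows up to 1.03% (3 counts of the total, counting error only). These limits concern cells with a UMI at these depths and not cells that express the gene, and in the second run 0.0623% ± 0.132 of thinned granulocyte-gated cells had an *Il7* UMI. Thinned adipogenic-gated cells had an *Il7* UMI in 9.73% ± 3.89 of cases (32.8% unthinned).

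*Ackr3* ran the other way through the mesenchymal classes. It was highest in osteocyte-like-gated cells, from 3.18 through a median of 4.51 to 6.48, with a mean of 4.61 ± 0.854 (SD, n = 16). Osteoblast-gated cells had 2.38 ± 0.334, from 1.84 to 2.98, below osteocyte-like-gated cells in 16 of 16 pools without overlap (1.94-fold between means, exact permutation test, adjusted p = 0.000111). Contractile-gated cells followed at 0.349 ± 0.109 and adipogenic-gated cells at 0.0747 ± 0.0329, each step present in 16 of 16 pools (exact permutation tests, adjusted p = 0.000111). Adipogenic-gated and macrophage-gated cells, at 0.0737 ± 0.0527, did not differ beyond their spread (exact permutation test, adjusted p = 0.71). Of thinned cells, 53.6% ± 4.44 of osteocyte-like-gated, 32.9% ± 3.68 of osteoblast-gated, 6.00% ± 1.89 of contractile-gated and 1.52% ± 0.772 of adipogenic-gated cells had a UMI (91.3%, 78.8%, 32.8% and 6.55% unthinned), against 0.728% ± 0.585 of granulocyte-gated cells (2.23% unthinned). The scavenging receptor was lowest among mesenchymal classes where its chemokine was highest.

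*Cxcr4*, the signalling receptor of CXCL12, was highest in leukocytes. Macrophage-gated cells ranged from 3.40 in pool 6 through a median of 5.41 to 8.21 in pool 10, with a mean of 5.54 ± 1.35 (SD, n = 16). Granulocyte-gated cells had 0.919 ± 0.259 (n = 10), from 0.582 to 1.41, below macrophage-gated cells in 10 of 10 pools without overlap (6.22-fold between the means over these 10 pools, exact permutation test, adjusted p = 0.00391). The 4 mesenchymal classes had means from 0.0308 to 0.0422, and granulocyte-gated cells were above the highest of them, contractile-gated cells, in 10 of 10 pools (exact permutation test, adjusted p = 0.00391). Osteoblast-gated, osteocyte-like-gated and adipogenic-gated cells did not differ from the next in order (exact permutation tests, adjusted p = 0.85 and 0.918). Among smaller leukocyte classes, osteoclast-like-gated cells had 3.38 ± 0.440 (n = 2 pools), monocyte-gated cells 1.64 ± 0.693 (n = 4) and T cell-gated cells 0.932 ± 0.186 (n = 3), with no test. A *Cxcr4* UMI was present in 61.9% ± 7.80 of thinned macrophage-gated cells (84.9% unthinned), 16.9% ± 2.76 of granulocyte-gated cells (37.1% unthinned) and 0.749% ± 0.452 of adipogenic-gated cells (3.33% unthinned).

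Adipogenic-gated cells held more of the niche factor UMIs than of the cells. Adipogenic-gated cells made up 6.71% ± 3.46 of the cells and 6.14% ± 2.84 of all UMIs of a pool (mean ± SD, n = 16). They held 60.2% ± 9.03 of the *Cxcl12* UMIs, from 40.7% to 77.6% over pools. Their share was 61.1% ± 8.40 for *Angpt1*, 59.5% ± 10.7 for *Il7*, 58.2% ± 10.8 for *Vcam1*, 53.0% ± 13.5 for *Lepr* and 46.8% ± 8.27 for *Kitl*. Their lowest pools were 42.1% for *Angpt1*, 42.6% for *Il7*, 29.3% for *Vcam1*, 37.3% for *Lepr* and 35.1% for *Kitl*. Leukocytes outside the macrophage-gated and granulocyte-gated classes held 4.61% ± 7.31 of *Vcam1* UMIs, with a highest pool of 31.0%. In pool 8 all leukocytes together held 2448 *Vcam1* UMIs and adipogenic-gated cells 1807, so the latter did not lead in every pool. Mesenchymal cells outside the 4 named mesenchymal classes, 20.3% ± 4.14 of cells and 26.8% ± 5.51 of all UMIs, held a further 25.7% ± 5.78 of *Cxcl12* UMIs, no more than their share of all UMIs, and 33.3% ± 5.19 of *Kitl* UMIs. For the receptors, osteoblast-gated cells held 57.1% ± 7.11 and osteocyte-like-gated cells 22.1% ± 7.87 of *Ackr3* UMIs, while macrophage-gated cells held 29.1% ± 7.65 and other leukocytes 41.9% ± 9.38 of *Cxcr4* UMIs. The plot of shares by class shows this against the share of all UMIs and of cells.

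**Figure D2:**
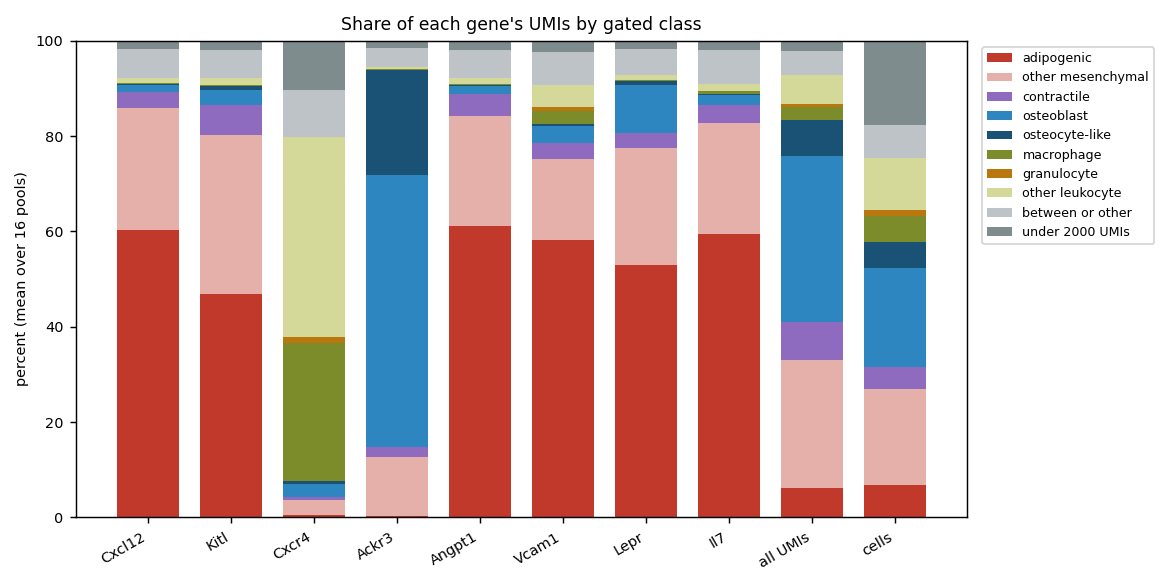
Percent of each gene's UMIs, of all UMIs and of cells (mean over 16 pools, stacked to 100%) held by each gated class, by mesenchymal and leukocyte cells in no class, by cells between the gates and by cells under 2000 UMIs. The adipogenic-gated part is 60.2% for *Cxcl12* and 6.71% for cells.

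Because the gates cut a continuous score, the members were also followed along it. Mesenchymal cells were split by their adipogenic marker score into 6 ranges (0 to 1, 1 to 10, 10 to 40, 40 to 80, 80 to 160 and above 160 UMIs per 10,000). Mean *Cxcl12* went from 0.585 through 2.83, 43.1 and 104.2 to 131.1 and then to 74.3 in the range above 160. *Kitl* went from 0.150 to 12.2 in the fifth range and 7.59 in the last. *Vcam1* went from 0.151 to 13.5 and 12.1, *Angpt1* from 0.0319 to 4.29 and 4.14, *Lepr* from 0.0556 to 2.61 and 2.13, and *Il7* from 0.00721 to 0.624 and 0.457. All 6 rose at each of the first 4 steps (exact paired permutation tests, adjusted p from 4.36e-05 to 0.002 over 30 tests). *Ackr3* went the other way, from 2.25 ± 0.510 in the lowest range to 0.0479 ± 0.0328 in the highest, given with no test.

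At the top of the score the steps differed between factors. *Cxcl12* fell by 0.83 ± 0.23 on the log2 scale (SD, n = 15 pools, exact permutation test, adjusted p = 7.96e-05) and was lower in 15 of 15 pools. *Kitl* fell by 0.68 ± 0.23 and was lower in 15 of 15 pools (exact permutation test, adjusted p = 7.96e-05), and *Il7* fell by 0.37 ± 0.43, lower in 13 of 15 (exact permutation test, adjusted p = 0.00197). The step was -0.03 ± 0.21 for *Angpt1* (exact permutation test, adjusted p = 0.571), -0.12 ± 0.30 for *Vcam1* (exact permutation test, adjusted p = 0.137) and -0.25 ± 0.51 for *Lepr* (exact permutation test, adjusted p = 0.0897). All 15 pairs of these 6 genes were compared for this last step, and 10 pairs differed past the threshold. The difference was -0.80 ± 0.25 for *Cxcl12* against *Angpt1* and -0.70 ± 0.26 against *Vcam1*, each in 15 of 15 pools (exact permutation tests, adjusted p = 0.000229 over 15 tests). For *Kitl* against the same genes it was -0.65 ± 0.33 and -0.56 ± 0.30, also in 15 of 15 pools (exact permutation tests, adjusted p = 0.000229). *Cxcl12* and *Kitl* fell more than *Il7*, by -0.45 ± 0.46 and -0.31 ± 0.44 (exact permutation tests, adjusted p = 0.00626 and 0.028), and more than *Lepr*, by -0.58 ± 0.55 and -0.43 ± 0.60 (exact permutation tests, adjusted p = 0.00513 and 0.0266). *Cxcl12* also fell more than *Kitl*, by -0.15 ± 0.16 (exact permutation test, adjusted p = 0.0107), and *Il7* more than *Angpt1*, by -0.34 ± 0.45 (exact permutation test, adjusted p = 0.0219). The other 5 pairs, among *Il7*, *Lepr*, *Vcam1* and *Angpt1*, had adjusted p from 0.0569 to 0.443 (exact permutation tests). Cells of the fifth range held a median of 9436 UMIs and those of the last 11172, and the 961 cells of the last range came from 15 usable pools. These steps were tested after the values were seen, and the markers that define the score take part of the UMIs that levels are divided by.

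Along the osteocyte marker score *Ackr3* went from 0.322 ± 0.0739 in mesenchymal cells with a score of 0 to 1 to 4.70 ± 0.853 above 80 (n = 14 pools), while *Cxcl12* went from 26.6 ± 12.7 to 0.459 ± 0.347. Along the macrophage marker score in leukocytes *Cxcr4* went from 2.33 ± 1.24 below 10 to 5.48 ± 1.32 at 80 to 160 and 5.48 ± 1.75 above 160 (n = 13 pools). *Vcam1* in the same leukocyte ranges had means from 0.485 to 1.26 with SDs of 0.256 to 1.32.

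**Figure D3:**
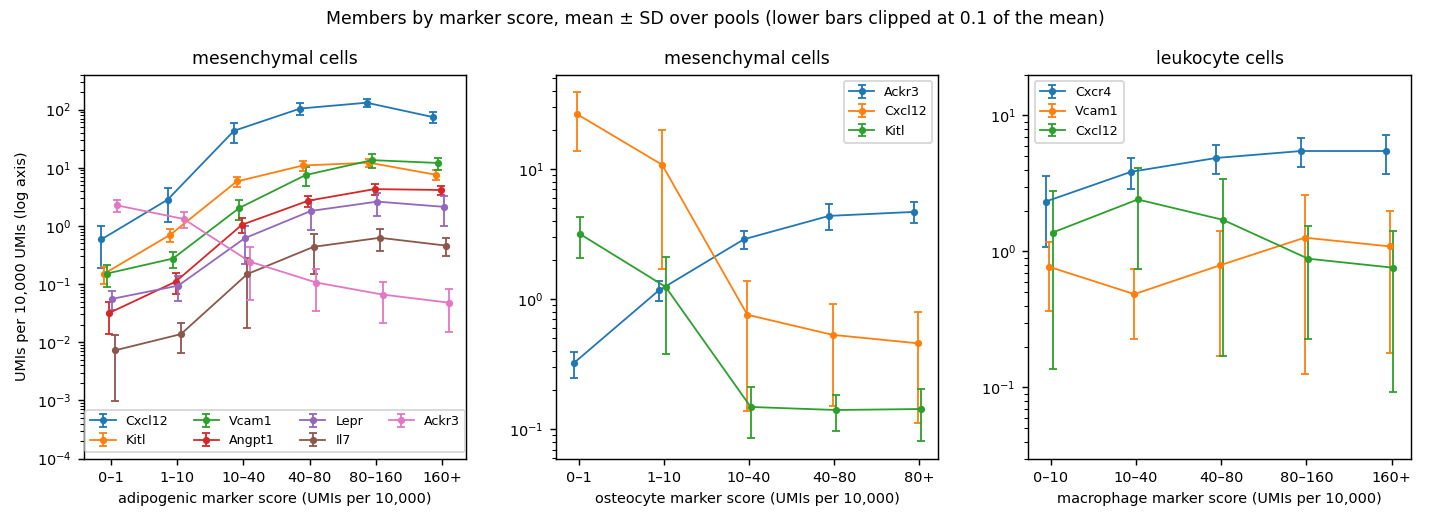
UMIs per 10,000 UMIs (log axis, mean ± SD over pools, lower bars clipped at 0.1 of the mean) of members against the adipogenic and osteocyte marker scores in mesenchymal cells and the macrophage marker score in leukocytes. *Cxcl12* peaks at 131.1 for a score of 80 to 160 and is at 74.3 above it, where *Angpt1* is at 4.14 after 4.29.

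Most adipogenic-gated cells carried *Cxcl12* together with *Kitl*, and most carried *Cxcl12* together with *Vcam1*. In cells thinned to 2000 UMIs, *Cxcl12* and *Kitl* were found together in 78.9% ± 5.39 of adipogenic-gated cells (n = 16 pools), *Cxcl12* and *Vcam1* in 70.2% ± 9.05, *Cxcl12* and *Angpt1* in 46.7% ± 6.10 and *Cxcl12* and *Lepr* in 30.7% ± 10.6. Since 96.1% of these cells had a *Cxcl12* UMI, such shares lie close to the other gene's own share. Without *Cxcl12*, the pair *Kitl* and *Vcam1* was in 60.1% ± 8.99, *Angpt1* and *Lepr* in 16.8% ± 6.02 and *Lepr* and *Il7* in 3.8% ± 2.24. *Kitl* was seen in 80.2% of all adipogenic-gated cells and in 85.5% ± 4.54 of those with a *Lepr* UMI. *Angpt1* was seen in 47.7% of all and in 53.8% ± 5.62 of those with *Lepr*. These are descriptions at a fixed depth, with no test.

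The same contrasts were tested across all genes by edgeR's quasi-likelihood test on counts summed per pool and class, with the pool as a block, TMM scaling and Benjamini-Hochberg adjustment. In mesenchymal against leukocyte cells (16 pools), 6 of the 8 genes were higher in mesenchymal cells, where 44.6% of all 13490 genes tested were, and 1 was lower, where 40.2% were. So large a background means that the counts alone set the members little apart. *Ackr3* was 4.32 ± 0.15 (SE) higher on the log2 scale (edgeR, adjusted p = 3.43e-16), *Lepr* 3.30 ± 0.22 (adjusted p = 1.19e-11), *Cxcl12* 3.20 ± 0.19 (adjusted p = 2.62e-12), *Angpt1* 3.17 ± 0.22 (adjusted p = 2.37e-11), *Kitl* 2.81 ± 0.17 (adjusted p = 3.38e-12) and *Il7* 2.45 ± 0.24 (adjusted p = 8.77e-09). *Cxcr4* was lower by 108-fold, at -6.76 ± 0.17 (edgeR, adjusted p = 2.18e-18), in 16 of 16 pools. The sizes depended on the treatment of doublets and on the gates. With called doublets kept, the differences were 1.79 for *Cxcl12*, 1.80 for *Kitl*, 1.98 for *Angpt1*, 2.19 for *Lepr* and 1.49 for *Il7*, and with gate limits 2 times as far 4.11, 3.40, 4.06 and 3.97 for the first 4 of these. All of them kept their direction and call. *Vcam1*, which ranged from 0.467 to 2.88 in mesenchymal and 0.207 to 2.84 in leukocyte cells, was at 0.47 ± 0.26 (edgeR, adjusted p = 0.0977) and higher in 10 of 16 pools. It passed the threshold in 3 alternatives, with DESeq2 (0.54, adjusted p = 0.0306), without a filter on low counts in edgeR (0.58, adjusted p = 0.0496) and with gate limits 2 times as far in edgeR (0.59, adjusted p = 0.0412).

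Between adipogenic-gated and osteoblast-gated cells (16 pools) 6 of 8 genes were higher in adipogenic-gated cells, where 38.9% of 12007 genes were, and 2 were lower, where 41% were. *Cxcl12* was 7.41 ± 0.22 (SE) higher on the log2 scale, or 170-fold (edgeR, adjusted p = 1.95e-17). *Angpt1* followed at 7.14 ± 0.14, *Il7* at 6.59 ± 0.14, *Vcam1* at 6.09 ± 0.12, *Kitl* at 5.85 ± 0.11 and *Lepr* at 4.53 ± 0.21 (edgeR, adjusted p from 2.62e-20 to 2.09e-14), all in 16 of 16 pools. *Cxcl12* and *Angpt1* lay at percentile 99.7 of all genes tested by log2 difference. *Ackr3* was 50.7-fold lower, at -5.66 ± 0.15 (edgeR, adjusted p = 2.21e-18), in 16 of 16 pools. *Cxcr4* was called lower at -0.74 ± 0.15 (edgeR, adjusted p = 0.000182), yet its level per 10,000 was lower in only 9 of 16 pools and the groups overlapped. With library totals in place of TMM factors the difference was -0.06 (edgeR, adjusted p = 0.949), so that call rests on the scaling.

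Between adipogenic-gated and contractile-gated cells (16 pools) the same 6 genes were higher, where 36.2% of 11040 genes were, and *Cxcr4* and *Ackr3* were lower, where 36.3% were. *Cxcl12* was higher by 4.55 ± 0.15 (SE, edgeR, adjusted p = 1.15e-16), *Lepr* by 4.49 ± 0.17, *Vcam1* by 4.47 ± 0.10, *Il7* by 4.36 ± 0.13, *Angpt1* by 4.05 ± 0.091 and *Kitl* by 3.16 ± 0.084 (edgeR, adjusted p from 1.38e-19 to 6.31e-16), all in 16 of 16 pools. *Ackr3* was lower at -2.44 ± 0.16 (edgeR, adjusted p = 1.18e-11) and *Cxcr4* at -0.67 ± 0.17 (edgeR, adjusted p = 0.00134), the latter in 12 of 16 pools with overlapping groups and at -0.41 (edgeR, adjusted p = 0.0305) with library totals.

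Scaling moved the size of differences, since the median gene moved with it. Library totals put the median log2 difference of all genes at 0.66 for adipogenic-gated against osteoblast-gated, 0.26 against contractile-gated and 0.59 for macrophage-gated against granulocyte-gated cells, where TMM put it at -0.01, 0.01 and 0.04. The split of calls went from 4669 higher and 4925 lower to 8639 and 2085 in the first, from 3999 and 4005 to 6204 and 2396 in the second, and from 2543 and 2371 to 4096 and 1305 in the third. In adipogenic-gated against osteoblast-gated cells, library totals put *Cxcl12* at 8.08, *Angpt1* at 7.82, *Il7* at 7.27, *Vcam1* at 6.77, *Kitl* at 6.52, *Lepr* at 5.21 and *Ackr3* at -4.98 on the log2 scale, so the folds given above hold for TMM scaling. *Ackr3* was at -5.05 there with called doublets kept. With gate limits 2 times as far, the differences against contractile-gated cells were 5.21 for *Cxcl12*, 5.39 for *Lepr*, 4.72 for *Angpt1* and 3.90 for *Kitl*.

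**Figure D4:**
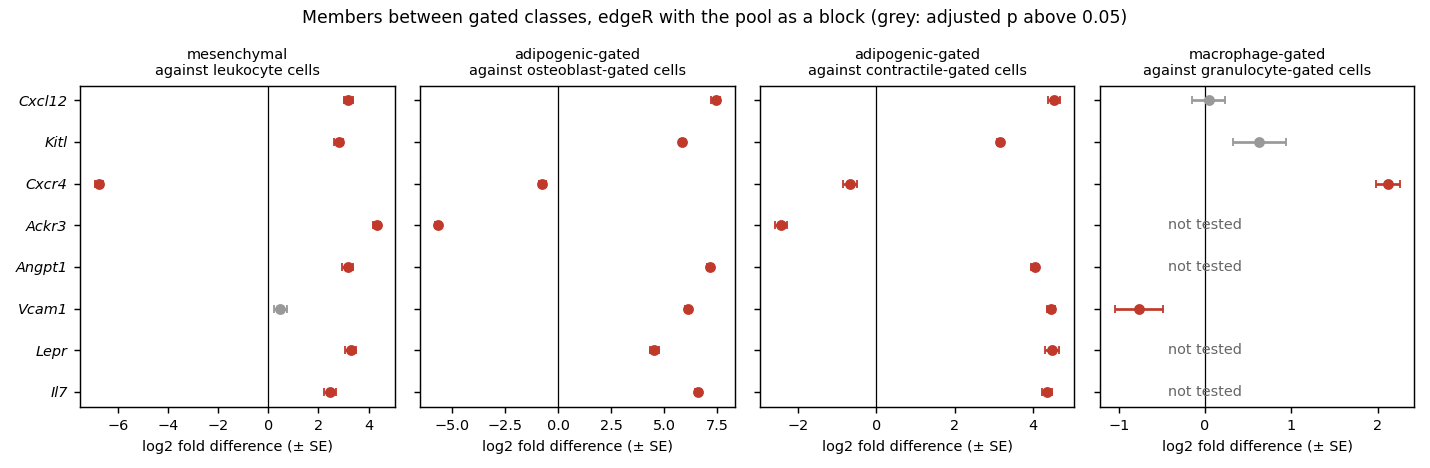
Log2 fold difference (± SE, edgeR with the pool as a block) of the 8 genes in the 4 comparisons, with adjusted p above 0.05 in grey and genes under the filter on low counts marked as not tested. Points right of 0 are higher in the class named first, and the x axes differ between panels. *Cxcl12* sits at 7.41 in the second panel and at 0.04 in the fourth.

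Macrophage-gated and granulocyte-gated cells (10 pools) were the leukocyte comparison, in which 4 of the 8 genes passed the filter on low counts. *Cxcr4* was higher in macrophage-gated cells by 2.12 ± 0.14 (SE, edgeR, adjusted p = 1.00e-11), where 36.7% of 6932 genes were higher, and by 2.24 (edgeR, adjusted p = 2.32e-12) without pool 6. *Vcam1* was lower at -0.77 ± 0.28 (edgeR, adjusted p = 0.0181), where 34.2% were lower, in 7 of 10 pools with overlapping groups. Its call was lost without the block (-0.66, edgeR, adjusted p = 0.0965), with gate limits 2 times as far (-0.25, edgeR, adjusted p = 0.546), with at least 50 cells per class (-0.54, edgeR, adjusted p = 0.0541) and with library totals (-0.24, edgeR, adjusted p = 0.436). *Cxcl12* was at 0.04 ± 0.19 (edgeR, adjusted p = 0.86) and *Kitl* at 0.63 ± 0.31 (edgeR, adjusted p = 0.073). By the exact permutation test on levels per 10,000, *Cxcl12* was higher in macrophage-gated cells in 9 of 10 pools (log2 difference 0.56 ± 0.65, SD, adjusted p = 0.025). With library totals the edgeR values became 0.60 (edgeR, adjusted p = 0.00375) and 1.22 (edgeR, adjusted p = 0.000904).

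Receptors and partners of the members were read from a list of 12 genes. One of them, *Csf2rb*, is not a receptor chain of any member, and it is part of the counts and medians where it was tested. In mesenchymal against leukocyte cells 8 were tested, of which 2 were higher, 5 lower and 1 not past the threshold (median log2 difference -3.06, against 0.07 over all genes, of which 44.6% were higher and 40.2% lower). *Il7r*, the receptor of IL7, was lower at -7.87 ± 0.19 (SE, edgeR, adjusted p = 2.02e-18) and *Itga4*, the integrin chain that binds VCAM1, at -3.41 ± 0.17 (edgeR, adjusted p = 2.15e-13). *Itgb1*, its partner chain, was higher by 0.68 ± 0.053 (edgeR, adjusted p = 2.29e-10). *Csf2rb*, a shared cytokine receptor chain, was at -7.52 ± 0.13 (edgeR, adjusted p = 3.21e-20) and *Itgb7*, a further integrin chain, at -6.20 ± 0.20 (edgeR, adjusted p = 1.30e-16). *Il7r* had 0.755 ± 0.294 UMIs per 10,000 in macrophage-gated cells (n = 16) and 2.30 ± 1.73 in T cell-gated cells (n = 3), whereas the 4 mesenchymal classes had at most 0.00590. *Kit*, the receptor of *Kitl*, was higher in mesenchymal cells by 1.48 ± 0.35 (edgeR, adjusted p = 0.0006), with 0.396 ± 0.136 per 10,000 in adipogenic-gated, 0.359 ± 0.201 in osteocyte-like-gated and 0.229 ± 0.0611 in granulocyte-gated cells (n = 10). *Tek*, the receptor of *Angpt1*, had 15 UMIs in all mesenchymal cells and 1 in all leukocytes and was not tested. In the other comparisons 5, 3 and 6 of the 12 were tested. They gave 1 higher and 3 lower for adipogenic-gated against osteoblast-gated cells (median -0.70, against -0.01 over all genes), 2 higher and 1 lower against contractile-gated cells (median 1.17, against 0.01), and 3 higher and 1 lower for macrophage-gated against granulocyte-gated cells (median 0.42, against 0.04). Over all genes the shares higher and lower were 38.9% and 41%, 36.2% and 36.3%, and 36.7% and 34.2% in the same order, and with so few genes tested these counts set the list little apart. In the last of these *Kit* was lower at -5.28 ± 0.35 (edgeR, adjusted p = 5.55e-12) and *Il7r* higher at 3.65 ± 0.34 (edgeR, adjusted p = 1.77e-09).

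A second list held 15 other niche signals. Of 10 tested, 8 were higher in adipogenic-gated than in osteoblast-gated cells and 2 were lower (median 1.62, against -0.01 over all genes, of which 38.9% were higher and 41% lower). *Il15*, a lymphocyte growth factor, was higher by 6.25 ± 0.17 (SE, edgeR, adjusted p = 3.73e-18), *Il34*, a ligand of the macrophage receptor CSF1R, by 5.53 ± 0.14 (edgeR, adjusted p = 1.63e-18) and *Igf1* by 4.22 ± 0.15 (edgeR, adjusted p = 4.59e-16). *Lif* and *Ptn* were lower, at -1.92 ± 0.19 (edgeR, adjusted p = 1.05e-08) and -1.62 ± 0.30 (edgeR, adjusted p = 4.38e-05). Against contractile-gated cells 7 of 10 were higher and 3 lower (median 0.64, against 0.01 over all genes, of which 36.2% were higher and 36.3% lower), with *Ptn* lowest at -6.60 ± 0.19 (edgeR, adjusted p = 5.68e-18). In mesenchymal against leukocyte cells 6 of 12 tested were higher and 6 lower (median 0.44, against 0.07), which is near the 44.6% higher and 40.2% lower of all genes. *Igf1*, *Csf3* and *Il15* were lower there, at -5.29 ± 0.18 (edgeR, adjusted p = 2.24e-16), -3.34 ± 0.30 (edgeR, adjusted p = 2.29e-09) and -2.28 ± 0.24 (edgeR, adjusted p = 2.12e-08). *Bmp4* was higher by 4.36 ± 0.18 (edgeR, adjusted p = 4.48e-15). In macrophage-gated against granulocyte-gated cells 3 of 4 were higher and none lower (median 1.68, against 0.04 over all genes, of which 36.7% were higher and 34.2% lower), led by *Igf1* at 6.22 ± 0.22 (edgeR, adjusted p = 1.61e-16).

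The 9 genes taken as marks of niche stroma were all higher in mesenchymal than in leukocyte cells (median 3.52, against 0.07 over all genes, of which 44.6% were higher and 40.2% lower). Adipogenic-gated cells had 7 of them higher than osteoblast-gated cells, 1 lower and 1 not past the threshold (median 2.33, against -0.01 over all genes, of which 38.9% were higher and 41% lower). *Esm1*, a secreted proteoglycan, was higher by 7.33 ± 0.23 (SE, edgeR, adjusted p = 3.89e-17), *Grem1*, a BMP antagonist, by 5.88 ± 0.22 (edgeR, adjusted p = 5.43e-16) and *Ebf3*, a transcription factor of the EBF family, by 5.08 ± 0.091 (edgeR, adjusted p = 1.16e-20). *Nes*, an intermediate filament, was lower at -3.37 ± 0.27 (edgeR, adjusted p = 2.65e-10). Against contractile-gated cells 6 were higher, 2 lower and 1 not past the threshold (median 1.94, against 0.01 over all genes, of which 36.2% were higher and 36.3% lower). None was tested in macrophage-gated against granulocyte-gated cells, since none passed the filter on low counts.

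Rare cells carried some members and partners, in numbers too small for pools to be compared. The 57 endothelial-gated cells (*Cdh5*, *Pecam1*), summed over pools, had 8.43 *Cxcl12* UMIs per 10,000 (95% Poisson interval 7.88 to 9.02), 7.63 of *Vcam1* (7.10 to 8.18), 2.41 of *Cxcr4* (2.12 to 2.73), 1.19 of *Kitl* (0.988 to 1.42) and 0.964 of *Ackr3* (0.783 to 1.18). They held 35 *Tek* UMIs, more than the 15 in 47913 mesenchymal cells, and 1 UMI of *Angpt1*. The 114 basophil- or mast-gated cells had 0.658 of *Angpt1* (0.482 to 0.878), which was 0.762 in pool 6, 1.04 in pool 7 and 0 in the 31 cells of pool 18. They had 2.60 of *Kit*, and 2.46 of *Cxcl12* (2.11 to 2.86), which was 8.38 in pool 6 and at most 0.547 in the other 2 pools with 20 cells. The 33 glial-gated cells had 1.69 of *Kitl* (1.18 to 2.34) from 36 UMIs. These intervals cover counting error only.

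Across pools, 4 of the 5 other factors went with *Cxcl12* in adipogenic-gated cells. In 6 relations fixed for these genes on log2 levels, *Cxcl12* went with *Angpt1* at Pearson r = 0.727 (permutation test, adjusted p = 0.00912) and Spearman rho = 0.709 (permutation test, adjusted p = 0.0075). It went with *Vcam1* at r = 0.708 (permutation test, adjusted p = 0.00912, rho = 0.682, adjusted p = 0.0075), with *Lepr* at r = 0.663 (permutation test, adjusted p = 0.0104, rho = 0.691, adjusted p = 0.0075) and with *Il7* at r = 0.653 (permutation test, adjusted p = 0.00972, rho = 0.70, adjusted p = 0.0075). The relation with *Kitl* did not pass the threshold, at r = 0.433 (permutation test, adjusted p = 0.113, rho = 0.438, adjusted p = 0.11). The raw p-values of r were 0.00203 for *Angpt1*, 0.00304 for *Vcam1*, 0.00696 for *Lepr*, 0.00486 for *Il7* and 0.0941 for *Kitl* (permutation tests). Without the 2 pools farthest from the median *Cxcl12* level, r was 0.673, 0.609, 0.565, 0.645 and 0.466 in that order, and the relation with *Lepr* no longer passed the threshold by r (permutation test, adjusted p = 0.0551) but did by rho (0.613, permutation test, adjusted p = 0.0433). That with *Vcam1* passed by r (permutation test, adjusted p = 0.047) but not by rho (0.569, permutation test, adjusted p = 0.0536). *Cxcl12* of mesenchymal cells and *Cxcr4* of leukocytes had r = 0.07 and rho = 0.179 (permutation tests, raw p = 0.796 and 0.505), and r = -0.192 without the 2 pools farthest from the median mesenchymal level. The 16 pools hold different mice, and the genes of a pool share its library.

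The *Cxcl12* level of adipogenic-gated cells was also set beside measures of the pools. With their median adipogenic score r was -0.185 and rho -0.132 (permutation tests, adjusted p = 0.563 and 0.712). With their median depth r was -0.046 and rho -0.074 (permutation tests, adjusted p = 0.866 and 0.788), and with their share of cells r was 0.471 and rho 0.515 (permutation tests, adjusted p = 0.087 and 0.0684). Without the 2 pools farthest from the median *Cxcl12* level, r was -0.127, 0.277 and 0.33 in the same order. The spread between pools was far above counting error, which would give an SD of 0.576 where 20.6 was seen for *Cxcl12*, and 0.179 where 2.73 was seen for *Vcam1*.

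**Figure D5:**
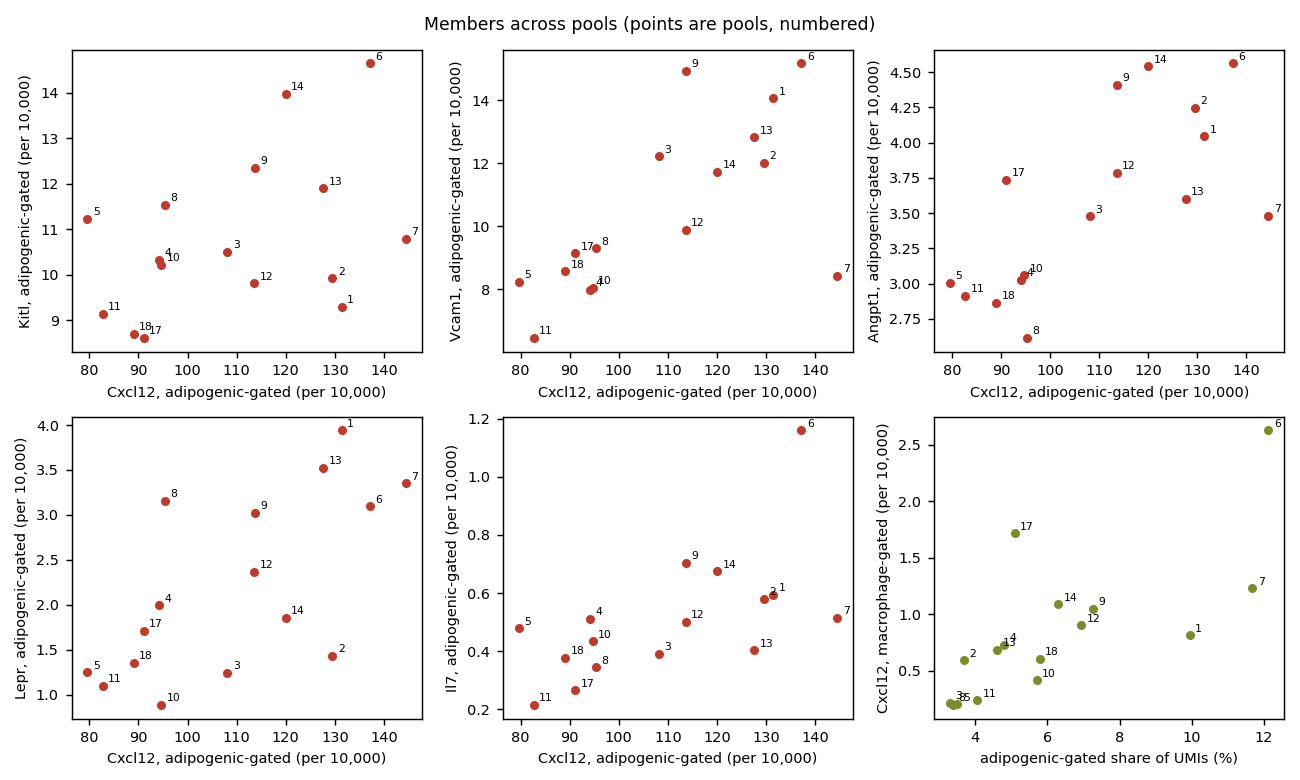
Levels in UMIs per 10,000 of *Kitl*, *Vcam1*, *Angpt1*, *Lepr* and *Il7* against *Cxcl12* in adipogenic-gated cells, and *Cxcl12* of macrophage-gated cells against the adipogenic-gated share of UMIs in percent, with 1 numbered point per pool. *Cxcl12* and *Angpt1* have r = 0.727 on log2 levels, and pool 6 is highest in the last panel at 2.63.

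Genes whose pattern over 102 sums of 10 classes was most like that of a member, by Pearson r of log2 levels among 15209 genes, are given as a description. For *Cxcl12* the nearest gene was another member, *Kitl* (0.966), followed by *Esm1* (0.963) and *Tgfbr3* (0.963). *Kitl* was nearest to *Marc1* (0.977), *Angpt1* to *Vegfc* (0.982), *Lepr* to *Gdpd2* (0.977) and *Il7* to *Pdzrn4* (0.984). For *Vcam1* the nearest gene, *Scp2*, reached only 0.914. *Cxcr4* was nearest to *Nckap1l* (0.988), and *Ackr3* to the osteoblast gene *Ibsp* (0.975) and to *Col1a1* (0.975), both of which were used as gate markers. The sums of a class share its cells and libraries, so these values carry no test.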

How the data were processed

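Cells were prepared on the 10x Chromium system and, per the labels, read counts were made with Cell Ranger 5.0.0 on mm10. The deposited files hold UMI counts per gene and barcode, not normalised, for each of 16 pools in 2 runs. The labels name a v2 kit, whereas the barcodes look like those of a later kit, and which was used is not settled here. The authors' cell type calls were not used here. The first run was analysed. The second held 98.2% of the barcodes of the first and served as an alternative, not as a replicate.

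Barcodes with 400 to 6200 genes, at most 10% mitochondrial UMIs and at most 20% and 15% from the genes of large and small ribosomal proteins were kept. Doublets were called by simulation (4.67%), at 0.8% per 1000 barcodes. Gates summed marker UMIs per 10,000. An adipogenic-gated cell, for example, had a score of at least 40 with at least 4 markers. Gate limits were set after the marker scores were seen, and the members and lists were chosen with earlier results of these data known. Members are all reported. Of list genes, counts are given, with values for receptors of members and up to 3 of the strongest calls each way. Similar genes were the 3 of highest Pearson r, and of these some are named.

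Counts were summed per pool and class (at least 20 cells) and tested with edgeR 4.0.16 in R 4.3.3 (quasi-likelihood, filterByExpr, TMM, pool as a block, Benjamini-Hochberg, threshold 0.05), and with DESeq2 1.42.0 as an alternative. The steps were tested on simulated data. The block rests on the design, since both classes come from the same pool and library. Deviations of the classes of a pool correlated at a median of 0.273, 0.286, 0.341 and 0.181 in the 4 comparisons, and at -0.0195 to -0.0294 between pools. Levels were compared by exact sign-flip permutation tests on log2(CPM + 10). Shares are the expected share of cells with a UMI when each cell is thinned to 2000 UMIs. Correlations used 100000 permutations. Alternatives were the second run, kept doublets, other gate limits, 50 cells, no filter, no block, other thinning, without pool 13, and, chosen after seeing the data, cells of at least 5000 UMIs, library totals, and without pool 6.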

Additional observations from a re-analysis of the deposited data

Results flagged for a closer look

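In granulocyte-gated cells, pool 6 stood far from the other 9 pools for 2 genes. Its *Cxcl12* level was 3.62 UMIs per 10,000, where the others ran from 0.158 to 0.712, and its *Kitl* level was 0.319, where the others ran from 0 to 0.0781. Without pool 6 the means were 0.409 ± 0.214 and 0.0395 ± 0.0301 (SD, n = 9). Pool 6 also had the largest adipogenic-gated share, 15.4% of cells and 12.1% of UMIs, and the highest *Cxcl12* level in macrophage-gated cells at 2.63. The part of these shares in the levels was not tested. In monocyte-gated cells, *Il7* was at 0.0226 UMIs per 10,000 in pool 18 and at 0 in the other 3 pools, a value that rests on 2 UMIs over all monocyte-gated cells. A gap between the extreme pool and the next was checked in 15 groups of 4 to 10 pools and found in 3. Chance would flag about 1 in 20 such groups only if their values were independent and not near 0. The *Il7* group was near 0 and the other flags share pool 6, so the number found is not judged against that rate.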

How the results depend on the processing

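Of 280 values for members in the 4 comparisons under alternative settings, 264 kept their direction and their side of the threshold, as did 40 of 41 counts of genes within 1.5 times, 22 of 24 levels, 10 of 12 relations and 10 of 24 shares of cells, of which 14 moved with depth. In mesenchymal against leukocyte cells *Vcam1* passed the threshold with DESeq2 (0.54), without the filter on low counts (0.58) and with gate limits 2 times as far (0.59). In adipogenic-gated against osteoblast-gated cells *Cxcr4* lost its call with library totals (-0.06). In macrophage-gated against granulocyte-gated cells the far gate limits left 2146 genes called, where fewer genes (3072) and pools (8) were tested, and the calls of members moved most. *Cxcl12* changed sign without the replicate block (-0.17) and with doublets kept (-0.31) and passed with library totals (0.60). *Kitl* passed with DESeq2 (0.96), without the filter (0.81), in the second run (0.74) and with library totals (1.22), and changed sign with doublets kept (-0.06). *Vcam1* lost its call without the replicate block (-0.66), with far gate limits (-0.25), with 50 cells (-0.54) and with library totals (-0.24). The replicate block changed no other call. *Kitl* could not be tested there without pool 6, since it fell under the filter. Far gate limits also put the adipogenic-gated level at 4.36 for *Angpt1* and 13.4 for *Vcam1*. The cause of these moves was not tested.

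Shares of cells depend on depth by construction. Thinned to 4000 UMIs and unthinned, they were 91.3% and 97.1% for *Kitl*, 67.5% and 86.8% for *Angpt1*, 84.2% and 93.6% for *Vcam1*, 45.9% and 63.5% for *Lepr* and 17.2% and 32.8% for *Il7* in adipogenic-gated cells, 79.3% and 84.9% for *Cxcr4* in macrophage-gated cells and 72.1% and 91.3% for *Ackr3* in osteocyte-like-gated cells. Leaving out the 2 most distant pools, r for *Lepr* was 0.565 and that of *Cxcl12* with *Cxcr4* changed sign to -0.192.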
